A study of Caenorhabditis elegans with 2 samples.

Results

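The genes of the cytosolic ribosomal proteins were examined in chromatin precipitated through a tagged form of CEH-19, a homeodomain transcription factor, from embryos of the nematode Caenorhabditis elegans. A gene was counted when the Ensembl annotation lists it as protein-coding and its name starts with rpl- (large subunit) or rps- (small subunit). This gave 78 genes of 19973 protein-coding genes on the nuclear chromosomes, 47 of the large subunit and 31 of the small. Membership was set by names and no measured value, though the group was chosen with earlier results of these data known.

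The study held 1 group of whole organisms, late embryos of both sexes at 5 hours, synchronised by egg bleaching. All animals were of strain OP739, which carries the unc-119 allele tm4063 and the insertion wgIs739. The insertion makes CEH-19 joined to the TY1, EGFP and 3xFLAG tags and also brings an intact unc-119. Chromatin was sonicated to 200 to 800 bp, bound DNA was recovered with an antibody against GFP, and 2 biological replicates, which the labels number 2 and 3, were sequenced (ChIP-seq). All values come from 1 strain with 1 insertion, and an untagged strain was not analysed here, so dependence of the regions on CEH-19 was not tested. In whole embryos, binding in few cells cannot be told apart from weak binding in many.

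The ribosome is built from a large and a small subunit, each made of ribosomal RNA and of many ribosomal proteins, most of them encoded in the worm by a single gene. Ribosomal protein genes are among the most strongly transcribed genes of growing cells, and their products are needed in nearly equal amounts. Many worm transcripts receive a spliced leader by trans-splicing, so that the annotated 5' end of a gene can lie downstream of the place where transcription starts. Many worm genes also lie back to back, with the upstream sequence of one serving as that of the other.

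Of the 78 genes, 12 (15.4%, 95% exact interval 8.21% to 25.3%) had a region of the authors' reproducible list with its summit within 1 kb of the 5' end, against 3.29% of all protein-coding genes. The reproducible list is the authors' set after the irreproducible discovery rate (IDR) procedure, and its 1112 regions are the 1112 strongest of the 30000 regions called on both replicates pooled. The rest of the pooled list includes background. In the pooled list 73 of the 78 genes (93.6%, 85.7% to 97.9%) had a region within 1 kb, against 46.9% of all genes. The 5 genes with none were rpl-1, rpl-19, rpl-37, rpl-42 and rps-9. The intervals cover counting error only, and the sources used here do not give the depth of the libraries.

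The 12 genes with a reproducible region were 7 of the 47 large subunit genes (14.9%) and 5 of the 31 small subunit genes (16.1%), shares whose intervals overlap over most of their length. Pooled regions were present at 43 of 47 and 30 of 31. The large subunit genes were rpl-3, rpl-7A, rpl-15, rpl-20, rpl-22, rpl-27 and rpl-35, and the small subunit genes rps-19, rps-20, rps-24, rps-26 and rps-28. Among them rpl-3 encodes a protein that reaches towards the peptidyl transferase centre, rpl-35 one at the exit of the tunnel for the nascent chain, and rps-26 one that contacts the mRNA where it leaves the small subunit. The human relative of rps-19 is a gene mutated in Diamond-Blackfan anaemia.

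**Figure D1:**
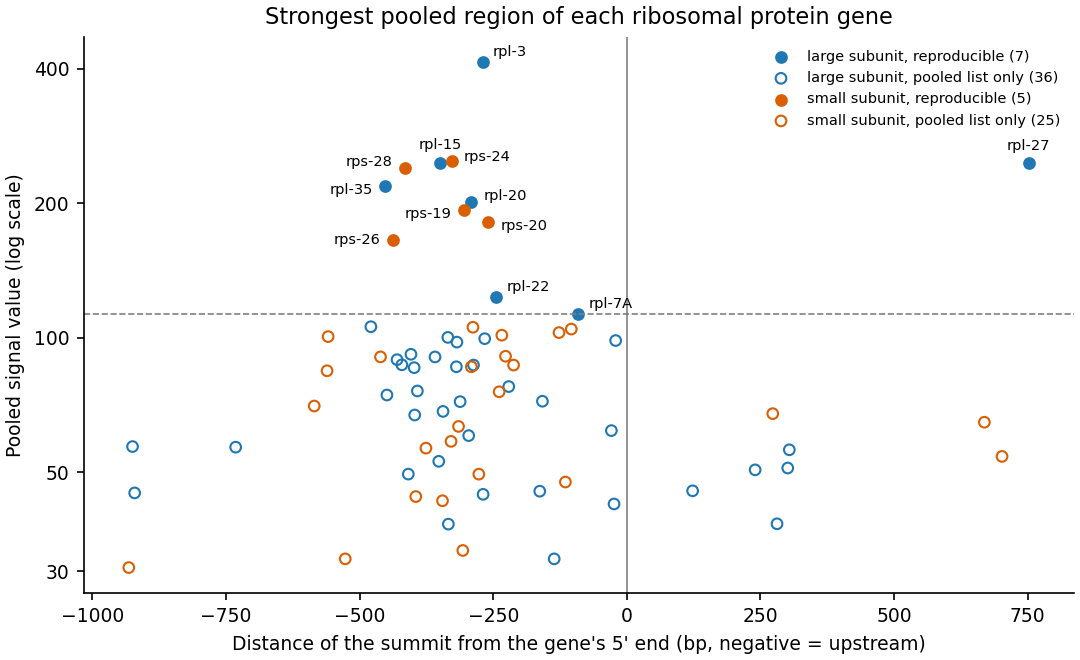
Each point is the strongest pooled region within 1 kb of a ribosomal protein gene (73 genes), with the distance of its summit from the 5' end in bp on the horizontal axis and the authors' pooled signal value on a log vertical axis. Filled points are in the reproducible list, and the dashed line marks the lowest signal of that list (113); most points, filled or open, lie 200 to 500 bp upstream, and rpl-3 stands highest at 415.

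The sequence under the summit is printed for 8 of the 12 reproducible regions because these windows carry the signal described here. Each is 101 bases, 50 on either side of the summit, read on the strand of the gene from RefSeq's copy of assembly WBcel235 (ce11). The windows of rpl-3 (chrIII:3867534-3867634) and rpl-35 (chrIII:7854632-7854732) are on the plus strand, as is that of rpl-22 (chrII:5055321-5055421). On chromosome IV, the windows of rps-24 (chrIV:385509-385609) and rps-28 (chrIV:1659226-1659326) are on the plus strand. Those of rpl-15 (chrIV:654876-654976), rpl-20 (chrIV:4750019-4750119) and rpl-7A (chrIV:4390631-4390731) are on the minus strand. All 8 summits lie between annotated protein-coding genes. Capitals mark TACGGT in either orientation, a word found upstream of many ribosomal protein genes.
rpl-3: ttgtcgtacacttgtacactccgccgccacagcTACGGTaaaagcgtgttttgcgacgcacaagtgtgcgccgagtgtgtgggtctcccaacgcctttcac
rps-24: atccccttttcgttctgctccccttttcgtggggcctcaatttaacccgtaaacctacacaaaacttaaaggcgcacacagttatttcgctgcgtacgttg
rpl-15: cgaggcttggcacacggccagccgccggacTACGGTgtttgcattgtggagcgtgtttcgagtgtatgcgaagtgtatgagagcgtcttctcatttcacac
rps-28: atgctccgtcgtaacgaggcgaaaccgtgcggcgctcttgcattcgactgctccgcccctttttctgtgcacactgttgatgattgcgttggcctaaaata
rpl-35: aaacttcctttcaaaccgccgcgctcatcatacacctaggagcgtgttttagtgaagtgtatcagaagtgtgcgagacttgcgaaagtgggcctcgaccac
rpl-20: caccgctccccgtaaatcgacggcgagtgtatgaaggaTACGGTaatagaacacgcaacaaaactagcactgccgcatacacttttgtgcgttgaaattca
rpl-22: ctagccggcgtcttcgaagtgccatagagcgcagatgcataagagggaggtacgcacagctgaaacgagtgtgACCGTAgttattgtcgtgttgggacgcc
rpl-7A: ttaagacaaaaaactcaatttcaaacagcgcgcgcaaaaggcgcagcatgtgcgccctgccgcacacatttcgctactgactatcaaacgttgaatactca

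The summit of the strongest of these regions lay 270 bp upstream of rpl-3, with a pooled signal value of 415, rank 35 of the 29977 nuclear regions. Its signal was 187 in replicate 2 (rank 29) and 229 in replicate 3 (rank 43). No other protein-coding gene starts within 1 kb of it, so that this region belongs to rpl-3 under any assignment by distance.

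A group of 4 regions followed with pooled signals between 240 and 248. The region of rps-24, 328 bp upstream, had 248 pooled, 69.0 in replicate 2 and 122 in replicate 3. That of rpl-15, 350 bp upstream, had 246 pooled, 85.4 in replicate 2 and 160 in replicate 3. That of rps-28, 415 bp upstream, had 240 pooled, 123 in replicate 2 and 119 in replicate 3. The replicates thus ordered these regions of small subunit genes differently. By rank, rps-28 was above rps-24 in replicate 2 (96 against 471), and the ranks were close together in replicate 3 (277 against 261). These ranks are of the regions matched to the pooled summits, and rps-24 had another, stronger region in replicate 3, given below. The fourth region, with 247 pooled, lay 752 bp downstream of the 5' end of rpl-27 but only 26 bp upstream of egl-30, which encodes a G protein alpha subunit. It is the only 1 of the 12 with its summit downstream of the ribosomal protein gene's 5' end.

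The regions of rpl-35 and rpl-20 had pooled signals of 219 and 202. At rpl-35, 452 bp upstream, the signal was 75.6 in replicate 2 and 149 in replicate 3. At rpl-20, 291 bp upstream, it was 87.8 in replicate 2 and 122 in replicate 3. Both genes were higher in replicate 3, as were most regions of the list. The summit near rpl-20 was closer to another gene, Y17G9B.5, at 171 bp.

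A further 3 small subunit genes share their region with a neighbour that points away from them and starts closer to the summit. The region 304 bp upstream of rps-19 lay 141 bp upstream of hsr-9, which encodes a relative of the DNA damage protein 53BP1, and had signals of 193 pooled, 110 in replicate 2 and 78.7 in replicate 3. The region 260 bp upstream of rps-20 lay 137 bp upstream of ekl-4 and had 182 pooled, 80.2 in replicate 2 and 103 in replicate 3. The region 438 bp upstream of rps-26 lay 19 bp upstream of tmem-107 and had 165 pooled, 70.7 in replicate 2 and 97.6 in replicate 3. Of the 12 regions, those of rps-19 and rps-28 alone were lower in replicate 3 than in replicate 2.

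The weakest 2 of the 12 sat at the edge of the list. The region 245 bp upstream of rpl-22 and 192 bp upstream of ify-1, which encodes securin, had 123 pooled (rank 873), 47.8 in replicate 2 and 78.9 in replicate 3. The region 91 bp upstream of rpl-7A had 113 pooled (rank 1086), 31.3 in replicate 2 and 74.4 in replicate 3. In replicate 2 these regions ranked 1363 and 5633, outside the 1112 strongest, whereas in replicate 3 they ranked 831 and 958. Both thus rank among the strongest regions of replicate 3 and not of replicate 2.

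Just below the reproducible list, 13 more genes had pooled signals from 90.6 to 106 and complete the 25 strongest. They were led by rpl-11.2 (106, rank 1299), rps-23 (106, rank 1310), rps-22 (105) and rps-13 (103). After these came rps-21 (101), rps-11 (101), rpl-41.1 (100.2), rpl-41.2 (99.5), rpl-12 (98.6), rpl-14 (97.8), rpl-2 (91.8), rps-4 (90.9) and rps-5 (90.6). The genes rpl-41.1 and rpl-41.2 are adjacent copies with much the same product, and the sources used here do not say how reads matching both were placed. The 25 strongest were 13 large and 12 small subunit genes. With the list extended to the 2224 strongest pooled regions, 32 of the 78 genes (41.0%) had a region, against 1235 of all 19973 genes (6.18%). This is 32 where the reproducible list gives 12, beside 1235 where it gives 657 over all genes.

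Over the 73 genes with a pooled region, the signal of the strongest had a median of 75.7 (quartiles 52.9 and 100.2), against 46.9 over all genes with one. The median was 74.4 for the large subunit and 80.0 for the small. The 61 genes below the reproducible list ran from 30.6 to 106 with a median of 67.6. Since the reproducible list holds the strongest pooled regions, none of these 61 genes could exceed the lowest signal of that list (113).

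Each replicate was also read alone. Within 1 kb, 66 genes (84.6%) had a region in the list of replicate 2, against 45.1% of all genes, and 74 (94.9%) in that of replicate 3, against 48.3%. Among the 1112 strongest regions of replicate 2, 13 genes (16.7%) had one, against 3.09% of all genes. Among as many of replicate 3, 14 genes (17.9%) had one, against 3.25%. In the strongest of both, 10 genes (12.8%, 6.32% to 22.3%) had one, against 2.01%. These 10 were all of the 12 but rpl-7A and rpl-22.

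The genes found in the strongest regions of only 1 replicate were 3 in replicate 2 and 4 in replicate 3. Those of replicate 2 were the small subunit genes rps-4, rps-18 and rps-21, with signals of 53.9, 64.9 and 55.0 against a lowest value of 51.5 among those regions. Those of replicate 3 were rpl-7A, rpl-22, rpl-14 (76.2) and rps-11 (80.4), against a lowest value of 71.0. The strong region of rps-18 in replicate 2 lay in a UTR of sec-61.A. In replicate 3 a second region at rps-24, 500 bp upstream, had a higher signal (171, rank 100) than the one matched to its pooled summit.

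Signal values are on different scales in the replicates, so that their ratio was used only to compare regions with each other. All 12 regions were found in both replicates with summits within 100 bp, against 1004 of the 1091 nuclear reproducible regions (92.0%). The log2 ratio of replicate 3 to replicate 2 had a median of 0.47 and an SD of 0.475 over the 12, and it ran from -0.48 to 1.25. Over the 1004 the median was 0.56 and the SD 0.535. The spread between the replicates at these genes was close to that of the whole list, and it amounts to a factor of 1.39. That factor is 1 SD of a ratio between the replicates and no error of a pooled signal. The error of a pooled signal was not measured, so close values, such as the 240 to 248 above, are not taken as separated. Of the 70 distinct strongest pooled regions, 48 were matched in both replicates, with a median log2 ratio of 0.37.

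**Figure D2:**
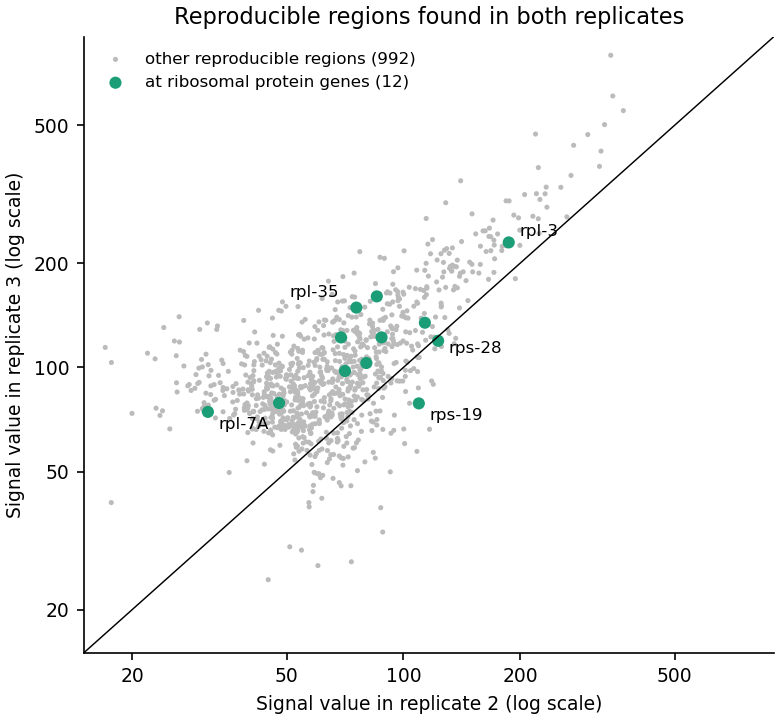
Each point is a nuclear reproducible region found in both replicates, with the authors' signal value in replicate 2 on the horizontal and in replicate 3 on the vertical axis, both on log scales; the line marks equal values. The 12 regions at ribosomal protein genes (large points) lie within the cloud of the other 992, with rpl-3 near its upper part, rpl-7A at low values of replicate 2, and rps-19 and rps-28 below the line.

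The regions of the ribosomal protein genes mostly lay well upstream of the annotated 5' end. The strongest pooled summit was upstream of the 5' end at 64 of 73 genes (87.7%, 77.9% to 94.2%), against 59.1% of all genes with a pooled region. It lay 200 to 500 bp upstream at 46 (63.0%, 50.9% to 74.0%), against 1905 of 9366 genes (20.3%). The median position was -307 bp with quartiles of -398 and -163, against a median of -111 bp over all genes. Within 100 bp of the 5' end lay 4 summits (5.48%), against 14.8% of all genes. The limits of this band were chosen after the positions were seen.

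The band from 200 to 500 bp upstream held the strongest summit at 27 of 43 large subunit genes (62.8%) and 19 of 30 small subunit genes (63.3%). Outside it, 4 large subunit genes and no small subunit gene had the summit within 100 bp of the 5' end, and the upper quartiles of position were -147 and -228.75 bp. The difference between the subunits was not tested. In replicate 2 alone the strongest region was in the band at 35 of 66 genes (53.0%), against 19.8% of all genes. In replicate 3 it was there at 43 of 74 (58.1%), against 19.5%. Of the 12 reproducible regions 10 were in the band, against 236 of 684 distances between a reproducible summit and a gene over all genes (34.5%). The exceptions were rpl-27 and rpl-7A.

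**Figure D3:**
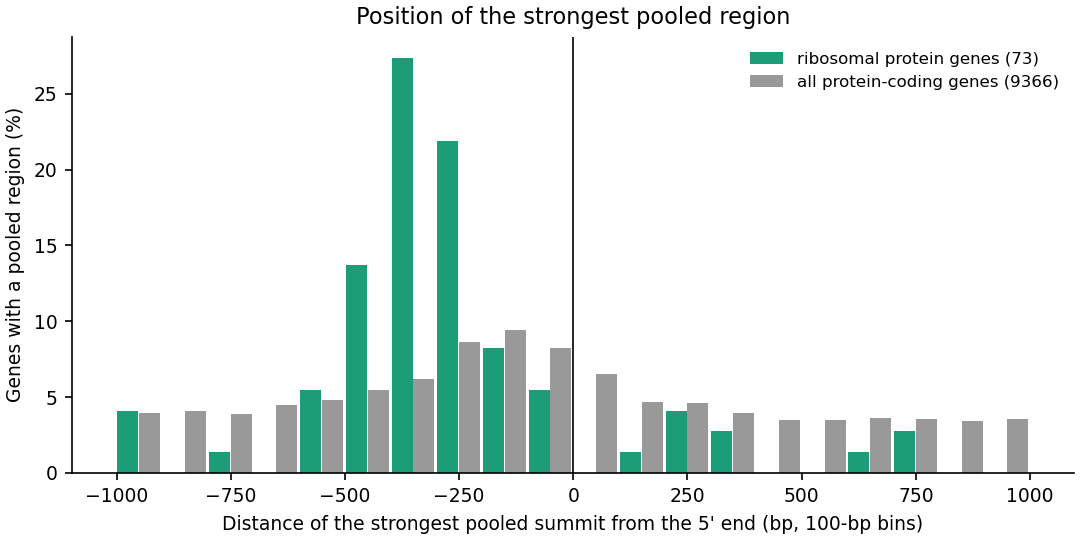
Bars give the percentage of genes whose strongest pooled summit falls in each 100-bp bin of distance from the 5' end (negative is upstream), for the 73 ribosomal protein genes and for all 9366 protein-coding genes with a pooled region. The ribosomal protein genes pile up between 200 and 500 bp upstream, while the genes at large are highest close to the 5' end.

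Most of these regions lay between protein-coding genes. By the annotation of protein-coding genes, 60 of the 73 strongest pooled summits were intergenic, 8 in a coding exon, 4 in an intron and 1 in a UTR. Some of the 60 lay inside a non-coding RNA gene, among them those of rpl-7 and rps-13. At 29 of the 73, another protein-coding gene's 5' end was closer, and at 24 of these the summit was upstream of both genes. For 3 pairs of ribosomal protein genes, rpl-39 with rps-30, rpl-24.1 with rps-10 and rpl-36 with rps-14, the strongest region of both is the same one. The strongest region of rpl-41.2 also lay within 1 kb of rpl-41.1, 836 bp downstream of its 5' end. With each summit given to the nearest 5' end only, 6 of the 78 genes had a reproducible region (7.69%, 2.88% to 16%), against 2.47% of all genes. The 6 lost were rpl-20, rpl-22, rpl-27, rps-19, rps-20 and rps-26, and which gene of each pair a region acts on was not tested. Under that assignment the band held 26 of 52 genes (50%), against 18% of all genes.

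Of the 12 reproducible regions, 1 (8.33%, 0.211% to 38.5%) had a tRNA or snoRNA gene within 200 bp of its summit, the snoRNA gene F39B2.14 at 80 bp near rps-26. Over all nuclear reproducible regions this was so for 222 of 1091 (20.3%), a share within that interval. Many snoRNAs are processed from the introns of other genes. Here, 13 ribosomal protein genes hold 19 snoRNA genes within their bounds, and 2 of the 13 (rpl-7A and rpl-15) had a reproducible region. Of the 73 strongest pooled regions, 2 (2.74%) were near a tRNA, snoRNA, snRNA or miRNA gene, that of rps-26 and that of rps-12 with F54E7.10 at 195 bp, against 2.23% over all genes with a pooled region. Another kind of non-coding RNA gene was within 200 bp at 14 of the 73 (19.2%, 10.9% to 30.1%), against 8.18% over all genes.

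By chromosome, the 12 genes were 5 of 17 on IV, 4 of 23 on I, 2 of 18 on III and 1 of 10 on II. Over all protein-coding genes, 2.83% on IV, 4.73% on I, 4.36% on III and 2.99% on II had a reproducible region. None of 8 was on V, which allows a share of up to 37.5%, against 1.84% of all genes there. Neither of the 2 X-linked genes had one, against 4.32%.

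Other parts of the protein synthesis machinery were read in the same way from lists fixed by name. Of 70 mitochondrial ribosomal protein genes, 3 had a reproducible region (4.29%) and 49 a pooled one (70.0%). Of 28 genes for ribosome assembly and ribosomal RNA synthesis, 2 had a reproducible region and 22 a pooled one. The 3 mitochondrial genes were mrpl-23 (206, 967 bp upstream), mrpl-15 (162, 651 bp upstream) and mrpl-39 (120, 118 bp upstream). The assembly genes were fib-1, for the ribosomal RNA methyltransferase fibrillarin (178, 100 bp upstream), and nol-10 (128, 269 bp upstream).

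The 5 other genes for proteins of the cytosolic ribosome or bound to it (rla-0, rla-1, rla-2, ubl-1 and rack-1) all had a pooled region and none a reproducible one, which allows a share of up to 60%. The same held for the 6 translation elongation factor genes, for which 0 allows up to 50%. The intervals of these short lists overlap that of the ribosomal protein genes, so that no difference between them is shown.

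**Figure D4:**
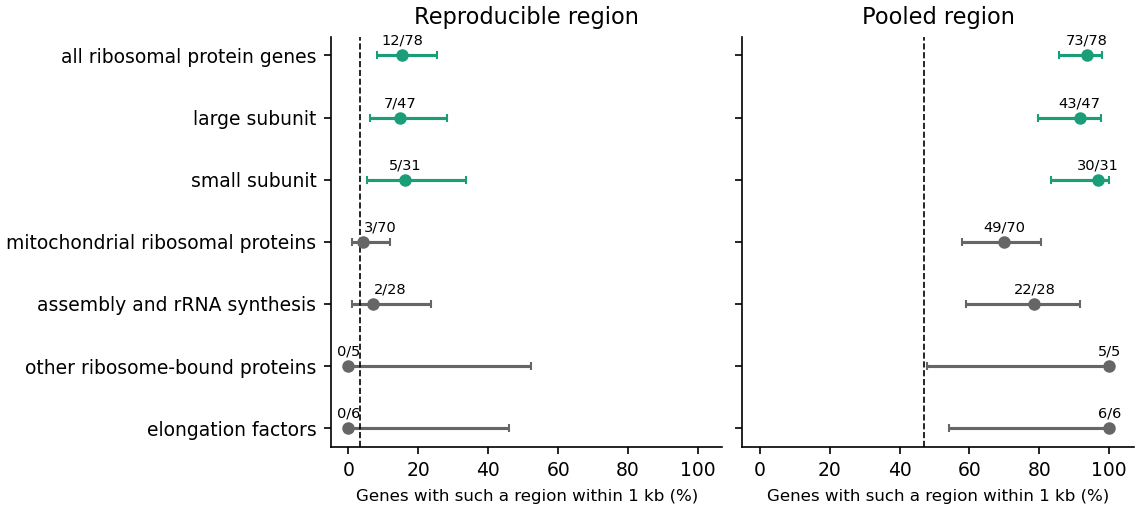
Points give the percentage of genes in each list with a reproducible region (left) or a pooled region (right) within 1 kb, bars the exact 95% interval for counting error, numbers the counts, and the dashed lines all protein-coding genes (3.29% and 46.9%). The ribosomal protein genes lie right of the dashed line in both panels, and the bars of the short lists are wide.

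Short words in the sequence were counted on both strands. GAGAG, a frequent word under the reproducible regions of these embryos, was present within 50 bp of the summit in 1 of the 12 regions (8.33%) and 10 of the 70 strongest pooled regions (14.3%), against 42.1% of all nuclear reproducible regions and 20.9% of all pooled ones. TAAT, the core of many homeodomain sites, was present in 2 of 12 and 28 of 70 (40.0%), against 33.0% and 51.5%. TAATTA or its variant ending in G was found in none of 12 and 2 of 70, against 4.86% and 9.38%. TAAACG was in none of 12 and 3 of 70, against 3.21% and 2.86%. ACACAC was in 1 of 12 and 7 of 70, against 17.3% and 6.14%. A count of 0 in 12 allows a share of up to 25%. None of these words was thus more frequent at the 12 summits than under reproducible regions in general, and a missing match says only that the letters are not in that window. In the 500 bp upstream of the 5' end the picture differed for TAAACG, which was present at 25 of the 78 genes (32.1%, 21.9% to 43.6%), 12 of the large and 13 of the small subunit, against 17.3% of all genes. GAGAG was there at 44 (56.4%), against 52.5%.

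Further words shared by the upstream sequences of ribosomal protein genes were found by comparing all 2080 words of 6 bases in the 500 bp upstream of the 5' end. They were picked after their counts were seen, on the same genes, so the counts are descriptions. TACGGT was upstream of 36 of the 78 genes (46.2%, 34.8% to 57.8%), against 13.9% of all genes and 15.7% of mitochondrial ribosomal protein genes. It was upstream of 25 of 47 large subunit genes and 11 of 31 small subunit genes. GGCCTA was upstream of 32 genes (41.0%), against 7.66%, and GAGACC of 34 (43.6%), against 12.9%. At least 1 of these 3 words was upstream of 62 genes (79.5%), against 29.6% of all genes. The GC content of the upstream sequences had a median of 33.7%, against 33.8% over all genes.

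Under the summits the base composition differed from that of pooled regions in general. The median GC content of the windows was 52% at the 12 reproducible regions and 47.0% at the 70 strongest pooled regions, against 50.5% over all reproducible and 41.6% over all pooled regions, and its part in the word counts was not tested. The 3 words picked above were chosen for their counts upstream of these same genes, where most of the strongest pooled summits lie. Their counts under the summits are thus not independent of that choice and are descriptions too. TACGGT was present within 50 bp of the summit in 6 of the 12 reproducible regions and 18 of the 70 strongest pooled regions (25.7%). Over all nuclear reproducible regions the share was 2.38%, and over all pooled ones 3.12%. In the windows printed above it can be read near the summits of rpl-3, rpl-15, rpl-20 and rpl-22. GAGACC was within 50 bp of the summit in 2 of 12 and 17 of 70 (24.3%), against 6.23% and 3.70%. GGCCTA was there in 2 of 12 and 7 of 70, against 3.57% and 3.09%. A word of 7 bases, GCGTGTT, recurred in 5 of the 12 windows, against 33 of all 1091 (3.02%), and of the 70 strongest pooled regions 6 held it (8.57%), against 0.921% of all pooled ones. In the 500 bp upstream it was found at 7 of the 78 genes (8.97%), all of the large subunit, against 3.77% of all genes and 8 of the 70 mitochondrial ribosomal protein genes (11.4%). It too was picked after its counts were seen, and can be read in the windows of rpl-3, rpl-15 and rpl-35 and, on the other strand, rpl-20.

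In the ribosomal protein genes TACGGT had a favoured place. Its 37 matches had a median position of -289 bp with quartiles of -370 and -223, which is the stretch where the strongest pooled summits lay. Of the 37 matches, 16 were within 50 bp and 24 within 100 bp of a pooled summit of the gene. The matches of GAGACC had a median of -282 bp, and 19 of 35 were within 50 bp of a pooled summit. Those of GGCCTA had a median of -258 bp, and 5 of 37 were that close. These matches were sought only in the 500 bp upstream, where most of the strongest pooled summits lie. The same counts over all genes were not made, so no excess of close pairs is shown. The presence of TACGGT went with little difference in signal. Of the 36 with the word, 5 had a reproducible region and the median pooled signal was 76.9, and of the 42 without it, 7 had one and the median was 70.3.

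**Figure D5:**
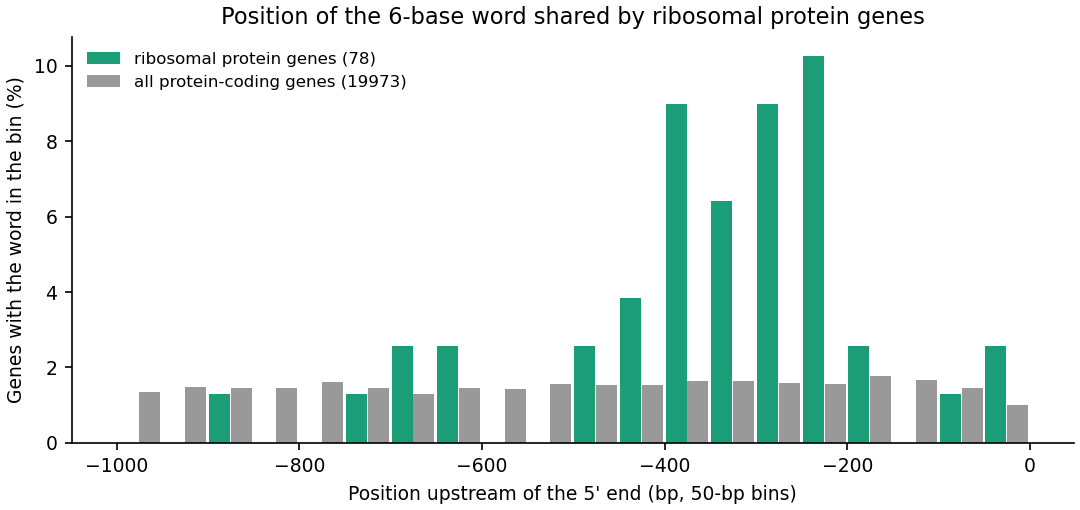
Bars give the percentage of genes with the 6-base word in each 50-bp bin of the sequence upstream of the 5' end, for the 78 ribosomal protein genes and for all 19973 protein-coding genes. In the ribosomal protein genes the word gathers between 200 and 450 bp upstream, and over all genes it stays under 2% in every bin.

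The other strand of TACGGT reads ACCGTA, and in many ribosomal protein genes this followed a longer shared stretch, AGTGT and then any single base. The whole longer word was upstream of 15 of the 78 genes (19.2%, 11.2% to 29.7%) and of 49 of all 19973 genes (0.245%), and of none of the 70 mitochondrial ribosomal protein genes. Among the other 34 of the 49 genes, 7 share the very same match with a ribosomal protein gene on the other side. Of the 15 ribosomal protein genes, rpl-1, rpl-24.1, rps-7, rps-10 and rps-17 are left out below, so counts over the windows do not describe all 15. The 30-base windows of the other 10 are printed as examples of this stretch, turned so that the word in capitals reads ACCGTA. They come from chromosome II for rpl-22 (chrII:5055382-5055411), V for rpl-38 (chrV:15511816-15511845) and X for rpl-11.2 (chrX:2242948-2242977). On chromosome III are rpl-6 (chrIII:7208072-7208101), rpl-21 (chrIII:8130506-8130535), rps-13 (chrIII:6375149-6375178) and rps-29 (chrIII:793802-793831). On chromosome IV are rpl-29 (chrIV:13881975-13882004), rpl-34 (chrIV:12268563-12268592) and rps-23 (chrIV:12391295-12391324). The windows of rpl-11.2, rpl-21 and rps-13 are on the minus strand and the others on the plus strand.
rpl-6: aaaacgagtgtcACCGTAgtcagacgcggg
rpl-11.2: gaaacgagtgttACCGTAgtcattttgcct
rpl-21: gaaacgagtgttACCGTActgtgtgccttt
rpl-22: gaaacgagtgtgACCGTAgttattgtcgtg
rpl-29: tgaacgagtgtgACCGTAtccgccagccgc
rpl-34: taaacgagtgttACCGTAgtcttcgcgccg
rpl-38: tgaacaagtgtaACCGTAccccttcgcaca
rps-13: aaaacgagtgttACCGTAtacaacttttag
rps-23: gaaacgagtgttACCGTAcctcgaggtagc
rps-29: gaaacgagtgtgACCGTAcccgagtggcgg

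By the choice of windows all 10 hold agtgt, then a base that differs between genes, then the capitals. Before agtgt, the run extends to aacgagtgt in 9 of the 10, all but rpl-38, and the bases farther out vary. For contrast, 5 windows with the 6-base word and without the longer one are rpl-11.1 (chrV:3586417-3586446, minus strand), rpl-33 (chrII:7105180-7105209), rpl-36.A (chrII:11097452-11097481), rps-1 (chrIII:4475623-4475652, minus strand) and rps-11 (chrIV:11602322-11602351), on the plus strand where none is named.
rpl-11.1: cacgaaaacaaaACCGTAccctcgaatcct
rpl-33: gcaggcatttctACCGTAgttattttgcgc
rpl-36.A: aaacgtgaaaaaACCGTAggccagcattaa
rps-1: acaatgcgtattACCGTAgtcacagcgcgt
rps-11: agcgcacacttcACCGTAgctgccgcagtg

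Of the 15 ribosomal protein genes with the longer word, 1 (6.67%) had a reproducible region. Over all 49 genes with it, 6 had one (12.2%), against 3.29% of all genes. The 49 genes hold the word at only 32 positions, so they are not independent. Of the 6, rpl-22 and ify-1 share a match and a region, as do T26A8.4 and pdtf-1. The longer word was upstream of 0.913% of the 657 genes with a reproducible region. The 1 ribosomal protein gene was rpl-22, with the summit 22.5 bp from the middle of the match. The strongest pooled signal of the 14 with a pooled region ran from 38.3 at rpl-21 to 123 at rpl-22, with a median of 81.9. The summit was 0.5 bp from the match at rpl-34 (signal 87.0), 28.5 bp at rpl-6 (76.0), 34.5 bp at rps-23 (106) and 42.5 bp at rps-13 (103). At rpl-21 it was 37.5 bp away, at rpl-29 57.5 bp, at rpl-24.1 and rps-10 76.5 bp and at rps-7 80.5 bp. The largest distances were 108.5 bp at rps-17, 110.5 bp at rps-29, 117.5 bp at rpl-38 and 131.5 bp at rpl-11.2 (106). The 15th gene, rpl-1, has the word and no pooled region.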

How the data were processed

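The deposited files are 4 region lists in narrowPeak format on ce11, per the labels: 1 for each replicate, 1 for both replicates pooled and 1 after IDR. The signal value of a region (column 7) is the authors' own, with no normalization stated. It was used for ranks within a list and for ratios between the replicates. The sources used here give no aligner, peak caller, version, IDR threshold or depth. A summit is the region's start plus column 10.

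Every region lay within the chromosomes of WBcel235, the same build. Genes came from Ensembl release 115. Regions on the mitochondrial genome were left out, ranks are over nuclear regions, and a list's "1112 strongest" was taken over all of its regions. A gene had a region when a summit was within 1 kb of its 5' end, whichever other genes were as near. Regions were taken as the same in 2 lists when their summits were at most 100 bp apart. Intervals are exact (Clopper-Pearson) at 95%, and a count of 0 allows up to 3 counts. With 1 group no test between conditions was made.

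The ribosomal protein genes, the comparison lists (2 names, rcl-1 and bop-1, were not found in the annotation) and the words were chosen with earlier results of these data known. Genes were named by rule: those with a reproducible region or a region among the 1112 strongest of a replicate, the 25 with the strongest pooled signal, those with no pooled region, and members of the comparison lists with a reproducible region. Genes named for a shared region, a small RNA gene or a word fall outside it and were chosen after their values were seen. Alternative distances, assignments, windows and single replicates were tried. On simulated data 100% of planted regions and words were recovered. The software was matplotlib 3.10.9, scipy 1.17.1, numpy 2.4.6 and Python 3.11.15.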

Additional observations from a re-analysis of the deposited data

How the results depend on the processing

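The number of ribosomal protein genes with a reproducible region was 12 and ran from 10 to 14 under other distances, 5' ends, overlaps and the stronger part of the list, and from 13 to 14 with a single replicate. With the nearest 5' end only it was 6, with 4 of the large and 2 of the small subunit. With a single replicate the small subunit count of 5 became 6 to 8, and that of the large subunit of 7 became 5 to 8. A tRNA or snoRNA gene within 500 bp rather than 200 bp of the summit was found at 2 regions instead of 1. GAGAG was found at 0 regions within 25 bp and at 3 within 100 bp of the summit, against 1 within 50 bp. In alternatives chosen after seeing the data, TACGGT was upstream of 13 genes within 250 bp and 39 within 1000 bp, against 36 within 500 bp. Likewise the strongest region was in the band from 200 to 500 bp upstream at 26 genes with the nearest 5' end only, against 46, and at 35 to 43 with a single replicate. The shorter upstream sequence and the nearest 5' end leave fewer bases and fewer genes by construction, and the cause of the other shifts was not tested. No paired analysis was possible because there is 1 group.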

Other observations

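The longer word, AGTGT followed by any single base and then ACCGTA, occupied 32 positions upstream of its 49 genes, 14 of them upstream of ribosomal protein genes. Of the 34 genes that are no ribosomal protein gene, 27 share no position with one, though several of these share a position with each other. Of the 34, 5 had a reproducible region within 1 kb, and these are named for that value: eel-1 (pooled signal 382), ntl-2 (261), T26A8.4 and pdtf-1, which share both a match and a region of 147, and ify-1, which shares those of rpl-22. The summit was 34.5 bp from the match at ntl-2, 105.5 bp at T26A8.4 and pdtf-1 and 194.5 bp at eel-1. The first word in the comparison of all 6-base words, CCTAAA, was upstream of 48 ribosomal protein genes (61.5%), against 21.4% of all genes.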
